A study of Mus musculus with 18 samples.

Results

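A set of 9 genes of the LINC complex and the muscle nuclear membrane was followed through early differentiation of myoblasts with LAP2α (WT) and after its knockout (KO). The genes were Sun1, Sun2, Syne1, Syne2, Syne3, Tmem38a, Wfs1, Tmem214 and Tor1aip1. All 9 were found by gene symbol among the 19153 genes listed for every library, and all 9 were among the 17667 genes with enough counts to be tested. The study asked how LAP2α, a protein of the nuclear interior encoded by Tmpo, takes part in gene regulation when myoblasts differentiate. RNA of immortalized mouse myoblasts was sequenced in 6 groups of 3 libraries each, 18 in all. All groups, the WT group included, carried a p53 knockout. The KO cells had received Cas9 with a guide against LAP2α and were sorted in bulk for green fluorescence, so they were a mixed population and not a single clone, and the WT cells had received the empty vector and the same sort. Proliferating cells (Prol) were harvested below confluence in 20% serum, D0 cells on reaching confluence in the same medium, and D2 cells after 48 hours in 5% serum, which starts fusion into myotubes. All cells grew on collagen. The labels do not say whether the libraries of a group came from separate cultures, so the p-values measure the spread between these libraries only.

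SUN proteins cross the inner nuclear membrane, and nesprins, encoded by the Syne genes, cross the outer one. They meet in the space between the membranes and form the LINC complex, which ties the lamina to actin, microtubule motors and intermediate filaments and positions nuclei in muscle fibres. Tmem38a, Wfs1 and Tmem214 encode membrane proteins of the endoplasmic or sarcoplasmic reticulum that are also found at the nuclear envelope of muscle. Tor1aip1 encodes LAP1, an inner membrane protein that binds lamins and activates torsin ATPases.

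Values are CPM, expected read counts scaled to a common library size. Totals per library ran from 26437823 to 41619016 expected counts (median 32939620), and the lowest value of the 9 genes in any library was 5.5 CPM, for Syne1. The libraries numbered 1 stood apart from those numbered 2 and 3 in every group, along transcript length. Among genes with a mean of at least 5 CPM, those whose longest transcript was under 1 kb had a median log2 difference of -0.78 to -0.34 between library 1 and the mean of the others, and those with transcripts over 12 kb one of 0.30 to 1.08. The 9 genes moved with this. Library 1 held the highest of the 3 values for 7 of 9 in both Prol groups, for 9 of 9 in both D0 groups and for 8 of 9 in both D2 groups, against 33.9% to 45.1% of all tested genes. The part of this difference in the results was not tested, and the D2/Prol values of the 9 genes are therefore also given without the libraries numbered 1. Counts of Tmpo were lower in KO than in WT Prol libraries (250, 228 and 260 CPM against 310, 275 and 315), but they hold all Tmpo transcripts together and do not check the loss of LAP2α. Muscle markers (8 of 9 listed, among them Myog and Acta1) summed to 33.8 to 67.6 CPM in the Prol and D0 libraries, to 2520 to 5020 at D2 in WT and to 1520 to 1880 at D2 in KO cells. Fibroblast markers (5 of 6 listed) summed to 13.9 to 78.8 CPM before D2 and to 218 to 423 at D2, and adipocyte, endothelial and macrophage markers stayed at or under 0.991, 2.46 and 8.0 CPM in every library.

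**Figure D1:**
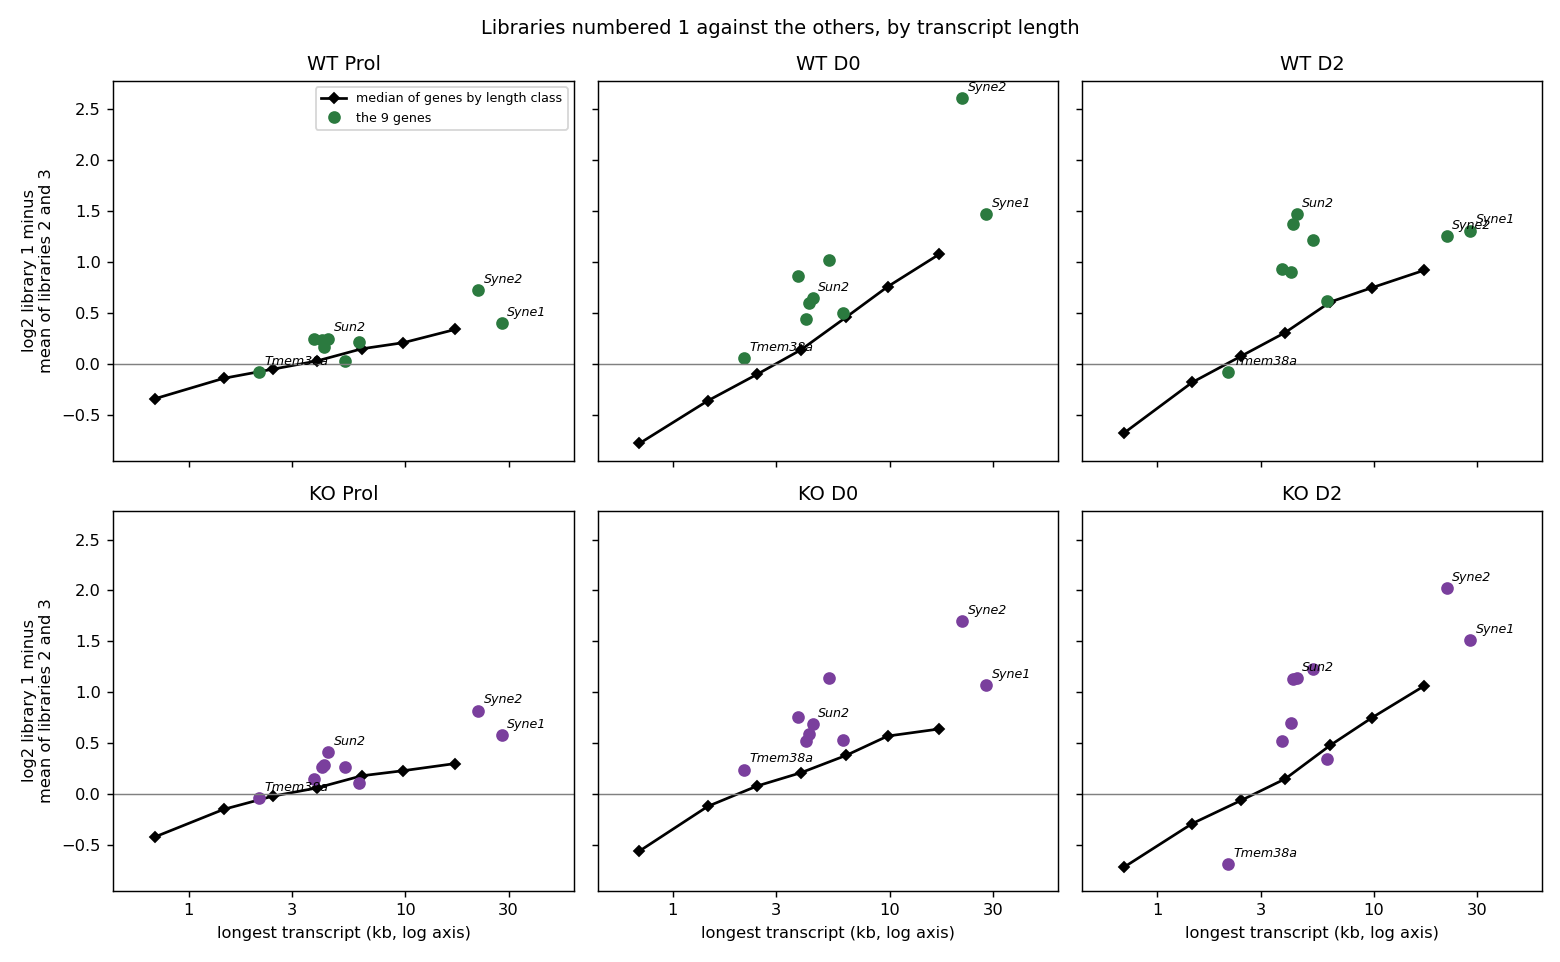
Log2 difference between library 1 and the mean of libraries 2 and 3 in each group, against the length of the longest annotated transcript in kb (log axis). Black diamonds are medians over the genes of a length class, drawn inside the class, and coloured points are the 9 genes. In all 6 groups the medians climb with length, from at most -0.34 below 1 kb to at least 0.30 above 12 kb, and most of the 9 genes lie above the line.

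From proliferation to D2, 3 of the 9 genes rose in both genotypes. These were Syne1, Tmem38a and Wfs1, and the other 6 did not pass the test (limma, adjusted p under 0.05). Of all tested genes, 30.7% were called in WT and 32.3% in KO cells, 16.7% and 17.1% as higher, so a count of 3 of 9 is close to the background. The median log2 fold change of the 9 was 0.29 in WT and 0.53 in KO cells, beside -0.01 and 0.02 over all tested genes. Without the libraries numbered 1 the median was the value of Tor1aip1, -0.06 in WT and 0.25 in KO cells. The medians over all tested genes were then 0.004 and 0.029. The 2 comparisons share no library. None of the 9 passed between D0 and Prol, and the same 3 passed between D2 and D0.

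**Figure D2:**
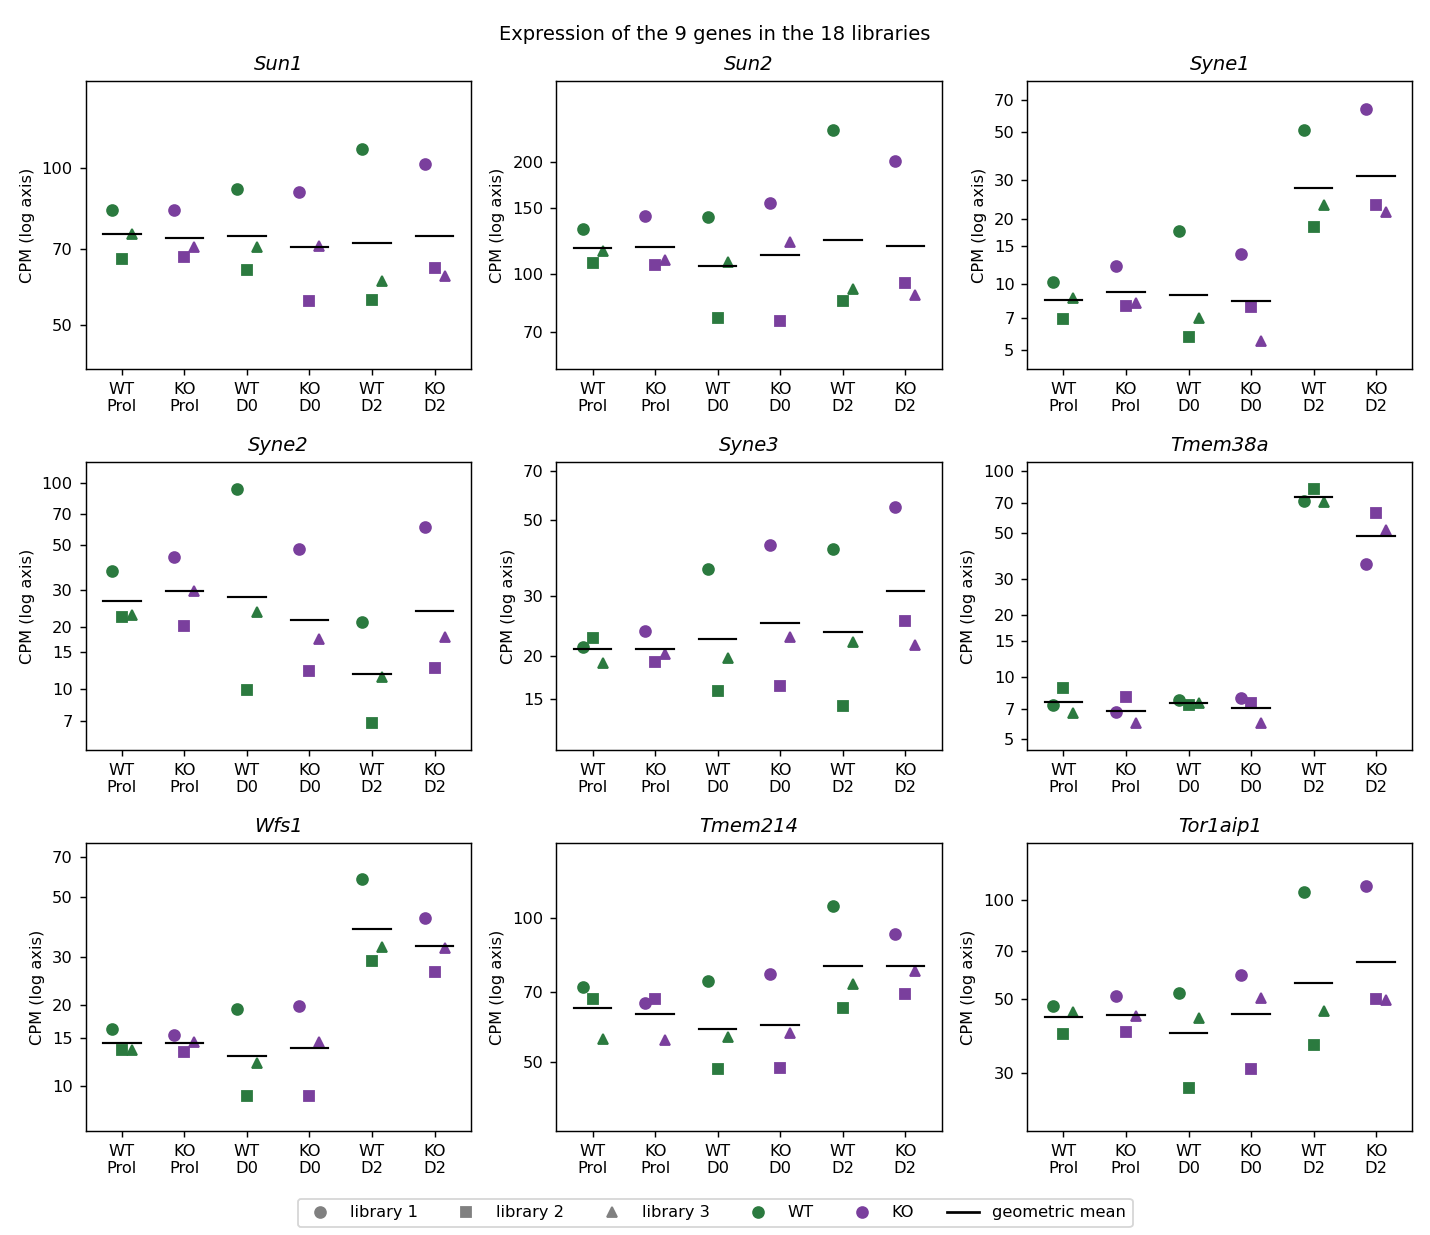
CPM of the 9 genes (log axes) in the 18 libraries by group. Circles, squares and triangles are libraries 1, 2 and 3, WT in green and KO in purple, and black bars are geometric means. Tmem38a is at 5.95 to 8.87 CPM in all Prol and D0 libraries and at 35.3 to 81.6 at D2, while Sun1 and Sun2 show no step at D2 and library 1 on top in each group.

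Sun1 (ENSMUSG00000036817, GRCm38 chr5:139200637-139249840, plus strand) and Sun2 (ENSMUSG00000042524, chr15:79724070-79742536, minus strand) encode the SUN proteins of somatic cells. Sun1 was at 83.2, 66.9 and 74.7 CPM in WT Prol and at 109, 55.7 and 60.7 CPM in WT D2 libraries. In KO cells it was at 83.1, 67.5 and 70.6 CPM in Prol and at 102, 64.3 and 62.0 CPM in D2 libraries. The groups overlapped, and library 1 was the highest in each. Log2 fold changes D2/Prol of Sun1 were -0.06 in WT (standard error 0.27, adjusted p = 0.898, limma) and 0.01 in KO cells, with a 95% interval of -0.62 to 0.50 in WT. Sun1 values without the libraries numbered 1 were -0.28 and -0.13 (adjusted p of 0.191 and 0.564, limma). Sun2 was at 132, 107 and 115 CPM in WT Prol and at 244, 84.8 and 91.2 CPM in WT D2 libraries. KO libraries held 143, 106 and 109 CPM of Sun2 in Prol and 201, 94.8 and 87.7 in D2. Only library 1 of each D2 group was above the Prol range, while libraries 2 and 3 were below it. Log2 fold changes of Sun2 were 0.07 in WT (standard error 0.40, adjusted p = 0.916, limma) and 0.00 in KO cells. Without the libraries numbered 1 they were -0.33 and -0.24, which did not pass the test either (adjusted p of 0.298 and 0.468, limma).

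The nesprin genes each behaved differently. Syne1 (ENSMUSG00000096054, chr10:5020917-5551482, minus strand) encodes nesprin-1, the giant actin-binding nesprin whose short muscle forms recruit microtubule regulators to the nuclear surface. It was at 10.2, 6.89 and 8.61 CPM in WT Prol and at 50.7, 18.2 and 23.0 CPM in WT D2 libraries. KO libraries held 12.1, 7.93 and 8.20 CPM in Prol and 63.3, 23.0 and 21.4 CPM in D2. Every D2 library was above every Prol and D0 library of its genotype, with library 1 far above the others. Of all tested genes, 23.0% in WT and 25.1% in KO cells had all D2 libraries above all Prol libraries. Against D0 these shares were 18.8% and 20.2%. Syne1 rose 3.27-fold in WT (log2 1.71, standard error 0.50, adjusted p = 0.0159, limma) and 3.41-fold in KO cells (log2 1.77, standard error 0.50, adjusted p = 0.0125). Without the libraries numbered 1 the log2 changes were 1.41 and 1.46, with adjusted p of 0.00137 and 0.00104 (limma). Leaving out single libraries kept the direction but lost the call in some cases. The log2 change in WT was 1.27 (adjusted p = 0.0721, limma) without WT D2 library 1 and 1.56 (adjusted p = 0.0561) without WT Prol library 2, and that in KO cells was 1.27 (adjusted p = 0.0646) without KO D2 library 1.

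Syne2 (ENSMUSG00000063450, chr12:75818134-76110926, plus strand) encodes nesprin-2, the other giant nesprin, and had the lowest fitted change of the 9 in both genotypes. It was at 37.4, 22.2 and 22.8 CPM in WT Prol, 93.0, 9.90 and 23.6 in WT D0 and 21.1, 6.79 and 11.4 in WT D2 libraries. KO libraries held 43.4, 20.2 and 29.9 CPM in Prol, 47.5, 12.2 and 17.4 in D0 and 60.7, 12.6 and 17.8 in D2. All 3 WT D2 libraries were below all 3 WT Prol libraries, as for 20.5% of all tested genes, whereas the KO groups overlapped. The spread within groups was wide, above all in WT D0, where library 1 was at 93.0 and library 2 at 9.90 CPM. The log2 fold change D2/Prol was -1.18 in WT (standard error 0.74, adjusted p = 0.255, limma) and -0.31 in KO cells (adjusted p = 0.793), neither past the threshold. With a block on replicate number the WT change passed (adjusted p = 0.00714, limma) and the KO change did not (adjusted p = 0.454). Without the libraries numbered 1 the WT value was -1.36 and passed (adjusted p = 0.0275, limma), and the KO value was -0.71 (adjusted p = 0.203). With the length trend removed from each library the values were -1.40 (adjusted p = 0.0150, limma) and -0.68 (adjusted p = 0.219). With the length trend removed and the replicate block together, both passed (adjusted p of 4.31e-05 in WT and 0.0105 in KO cells, limma). With all libraries and no length correction or block, the D2/Prol changes of the 2 genotypes differed by 0.87 on the log2 scale (standard error 1.04, adjusted p = 1, limma). With the length trend removed, that difference was 0.71 (unadjusted p = 0.238, limma). Blocked on replicate number, its unadjusted p was 0.0776, and 0.0241 with the length trend removed as well (limma). Neither of these fits called any tested gene for this difference.

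Syne3 (ENSMUSG00000054150, chr12:104929933-105009809, minus strand) encodes nesprin-3, which binds plectin and so intermediate filaments. It was at 21.2, 22.6 and 19.1 CPM in WT Prol and at 41.3, 14.3 and 22.0 CPM in WT D2 libraries. In KO cells it was at 23.7, 19.2 and 20.3 CPM in Prol and at 54.9, 25.3 and 21.5 CPM in D2 libraries. The groups overlapped in both genotypes, and the log2 changes of 0.17 and 0.57 (standard error 0.43) did not pass the test (adjusted p of 0.814 and 0.353, limma). They were -0.23 and 0.24 when the libraries numbered 1 were left out.

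Tmem38a (ENSMUSG00000031791, chr8:72572055-72587282, plus strand) encodes TRIC-A, a potassium-permeable channel of the sarcoplasmic reticulum that balances charge during calcium release. It showed the largest rise of the 9 in both genotypes. In WT cells it was at 7.27, 8.87 and 6.67 CPM in Prol, 7.69, 7.32 and 7.45 in D0 and 71.6, 81.6 and 70.3 in D2 libraries. In KO cells it was at 6.73, 8.0 and 5.98 CPM in Prol, 7.87, 7.49 and 5.95 in D0 and 35.3, 62.1 and 51.9 in D2 libraries. All D2 libraries were far above all others, and Tmem38a was the one gene of the 9 whose highest D2 value was not in library 1. The shares of all tested genes with all D2 libraries higher are given with Syne1. The rise was 9.84-fold in WT (log2 3.30, standard error 0.21, adjusted p = 7.12e-08, limma) and 7.07-fold in KO cells (log2 2.82, standard error 0.21, adjusted p = 4.82e-07). Leaving out any 1 library gave log2 changes of 3.21 to 3.42 in WT and 2.64 to 3.05 in KO cells, all past the threshold. Its longest transcript, at 2124 bases, is the shortest of the 9, and removing the length trend left 3.27 and 2.79. With libraries 2 and 3 alone the values were 3.30 and 3.04 (adjusted p of 2.32e-05 and 3.25e-05, limma).

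Wfs1 (ENSMUSG00000039474, chr5:36966104-36989205, minus strand) encodes wolframin, a glycoprotein of the endoplasmic reticulum that is lost in Wolfram syndrome. It was at 16.2, 13.6 and 13.6 CPM in WT Prol and at 58.2, 28.9 and 32.5 CPM in WT D2 libraries. In KO cells it was at 15.4, 13.4 and 14.5 CPM in Prol and at 41.7, 26.3 and 32.3 CPM in D2 libraries. All D2 libraries were above all Prol libraries of their genotype, as for 23.0% of all tested genes in WT and 25.1% in KO cells. Wfs1 rose 2.63-fold in WT (log2 1.40, standard error 0.32, adjusted p = 0.00345, limma) and 2.28-fold in KO cells (log2 1.19, standard error 0.32, adjusted p = 0.00925). Without the libraries numbered 1 the log2 changes were 1.17 and 1.07, both past the threshold.

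Tmem214 (ENSMUSG00000038828, chr5:30868012-30879180, plus strand) encodes a membrane protein of the endoplasmic reticulum and nuclear envelope. It was at 71.5, 67.8 and 55.7 CPM in WT Prol and at 106, 64.9 and 72.6 CPM in WT D2 libraries. KO libraries had 66.3, 67.6 and 55.6 CPM in Prol and 92.7, 69.4 and 77.5 CPM in D2. The KO D2 libraries were just above the KO Prol libraries, as for 25.1% of all tested genes, and the WT groups overlapped. Log2 changes of 0.29 and 0.33 (standard error 0.22) were not called (adjusted p of 0.359 and 0.289, limma), nor were those of libraries 2 and 3 alone, 0.16 and 0.26 (adjusted p of 0.514 and 0.284). Against D0 the values were 0.44 in WT and 0.41 in KO cells, with adjusted p of 0.175 and 0.195 (limma). In a fit that blocked on replicate number both passed (adjusted p of 0.0212 and 0.0280, limma). Scaled by library totals, the WT value against D0 was 0.56 and passed (adjusted p = 0.0419, limma).

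Tor1aip1 (ENSMUSG00000026466, chr1:156004599-156036480, minus strand) encodes LAP1, whose loss causes muscle disease. It was at 47.8, 39.4 and 45.8 CPM in WT Prol and at 106, 36.3 and 46.0 CPM in WT D2 libraries. Its values in KO libraries were 51.2, 39.7 and 44.5 CPM in Prol and 110, 50.3 and 49.9 CPM in D2 libraries. Again library 1 alone was far above the Prol range, in WT as in KO cells. Log2 changes of 0.34 and 0.53 (standard error 0.39) did not pass the test (adjusted p of 0.555 and 0.330, limma), and without the libraries numbered 1 they were -0.06 and 0.25. The non-coding gene 9430034N14Rik overlaps Tor1aip1 on the same strand, as do Gm25694 and Gm48836 with Syne1 and Mir5101 with Syne2, so reads of these pairs could be shared.

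**Figure D3:**
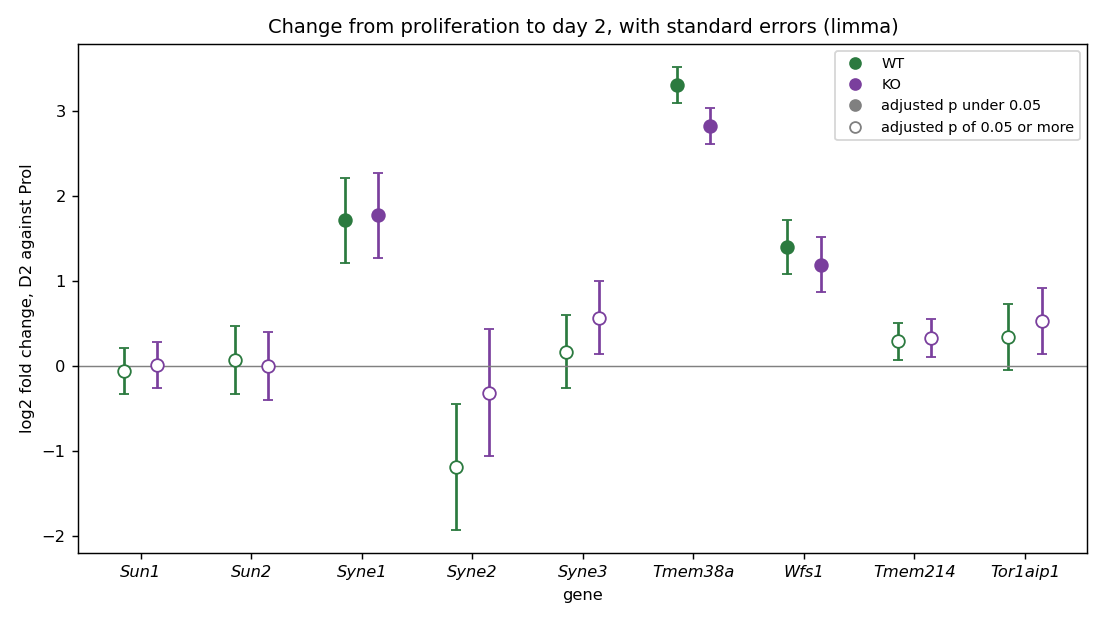
Log2 fold change from Prol to D2 of the 9 genes in WT (green) and KO (purple) cells. Bars are standard errors from limma, filled points passed an adjusted p of 0.05 and open points did not. Syne1, Tmem38a and Wfs1 are filled in both genotypes, with Tmem38a highest at 3.30 and 2.82, and Syne2 is lowest with wide bars.

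The promoters of the genes that rose are shown because muscle regulators such as MyoD and myogenin bind E-boxes, CANNTG, among which CAGCTG is a preferred form, and MEF2 factors bind an AT-rich site. RefSeq windows of the 250 bases before each transcription start (GRCm38.p6) were searched on both strands. All 9 genes matched the table, with 13 start sites in all. Capitals mark E-boxes, the sequence runs in the direction of the gene, and the windows are chr8:72571573-72571822 (plus strand) for Tmem38a, and chr10:5550693-5550942, chr10:5488315-5488564 and chr10:5069064-5069313 (minus strand) for the 3 start sites of Syne1, of which the third is deep inside the gene, before a short transcript. The Wfs1 window (chr5:36988983-36989232) has 223 bases in annotated exons and is not shown.
Tmem38a: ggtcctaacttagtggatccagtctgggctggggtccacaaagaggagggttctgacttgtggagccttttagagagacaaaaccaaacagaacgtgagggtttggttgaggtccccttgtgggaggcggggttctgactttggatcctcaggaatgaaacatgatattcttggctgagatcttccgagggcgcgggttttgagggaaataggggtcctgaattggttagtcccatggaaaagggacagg
Syne1 window 1: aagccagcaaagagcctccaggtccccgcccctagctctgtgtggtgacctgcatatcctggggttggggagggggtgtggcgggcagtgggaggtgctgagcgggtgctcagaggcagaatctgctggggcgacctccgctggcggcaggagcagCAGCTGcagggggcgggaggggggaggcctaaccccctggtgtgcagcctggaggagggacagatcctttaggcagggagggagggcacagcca
Syne1 window 2: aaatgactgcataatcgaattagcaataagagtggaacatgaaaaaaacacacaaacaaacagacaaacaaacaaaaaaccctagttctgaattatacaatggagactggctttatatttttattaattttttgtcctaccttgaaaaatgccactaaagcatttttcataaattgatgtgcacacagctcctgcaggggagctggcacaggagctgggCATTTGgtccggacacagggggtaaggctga
Syne1 window 3: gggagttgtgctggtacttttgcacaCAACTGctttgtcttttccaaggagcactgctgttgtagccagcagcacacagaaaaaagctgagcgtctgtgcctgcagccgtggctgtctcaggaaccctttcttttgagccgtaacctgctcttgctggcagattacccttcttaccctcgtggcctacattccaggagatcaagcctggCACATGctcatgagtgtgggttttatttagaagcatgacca

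The Tmem38a window held no E-box, the Wfs1 window held 1 and the Syne1 windows held 1, 1 and 2, with CAGCTG in the first Syne1 window. Of 32851 windows of all genes, 66.2% held at least 1 E-box (median of 1 per window) and 13.0% held CAGCTG. The MEF2 consensus was in no window of the 9 genes and in 2.92% of all windows. Among the genes that were not called, the second start sites of Sun1 and Tor1aip1 each held 4 E-boxes, and 3.84% of all windows held 4 or more. A match of letters is a description of the window and not a bound site, and enhancers lie outside these windows.

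Ratios between related genes within a library cancel what scales the whole library. They do not cancel a trend with transcript length where the 2 genes differ in length, as Syne3 (5263 bases) and Syne2 (21704 bases) do. In WT D0 cells the Syne3 to Syne2 ratio was 0.386, 1.59 and 0.839 in libraries 1, 2 and 3. The 4 ratios were Sun2 to Sun1, Syne1 to Syne2, Syne3 to Syne2 and Tmem38a to Tmem38b, each compared between D2 and Prol over 12 libraries by an exact two-sided permutation test within genotype (400 arrangements, smallest p of 0.005) and adjusted over the 4. The Syne1 to Syne2 ratio was at 0.273, 0.310 and 0.377 in WT Prol and at 2.40, 2.68 and 2.01 in WT D2 libraries. KO libraries had 0.278, 0.393 and 0.274 in Prol and 1.04, 1.82 and 1.2 in D2. So Syne2 had more reads than Syne1 in every Prol and D0 library and fewer in every D2 library. The rise was 5.61-fold (log2 2.49, exact permutation p = 0.005, adjusted p = 0.01). The Syne3 to Syne2 ratio rose 2.16-fold (log2 1.11, exact permutation p = 0.01, adjusted p = 0.0133). It was at 0.567, 1.02 and 0.837 in WT Prol and at 1.96, 2.10 and 1.93 in WT D2 libraries. The KO groups overlapped, with 0.546, 0.949 and 0.678 in Prol and 0.905, 2.01 and 1.21 in D2 libraries. The ratio of Sun2 to Sun1 was between 1.2 and 2.24 in all 18 libraries and did not pass (log2 0.06, exact permutation p = 0.635). Tmem38b encodes TRIC-B, the more widely expressed channel of the same family, and it rose too, from 11, 9.79 and 12.1 CPM to 43.1, 33.3 and 29.9 CPM in WT libraries. Tmem38a rose more, so that its ratio to Tmem38b moved from 0.552 to 0.906 in WT Prol up to 1.66 to 2.45 in WT D2 libraries. Over both genotypes that ratio rose 2.81-fold (log2 1.49, exact permutation p = 0.005, adjusted p = 0.01). Without the libraries numbered 1 the log2 changes of these 3 ratios were 2.47, 1.04 and 1.71. Each then had the smallest p that the fewer arrangements allow, an exact permutation p of 0.0556.

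Per kilobase of the longest coding transcript, and so only roughly for genes with many short forms, the order of the levels changed at D2. In WT Prol cells Sun2 led with 31.0 CPM per kb, followed by Sun1 with 18.1, Tmem214 with 10.6 and Tor1aip1 with 10.5. Syne3, Wfs1 and Tmem38a lay together at 3.99, 3.82 and 3.58 CPM per kb, and Syne2 and Syne1 were lowest with 1.27 and 0.307. In WT D2 cells Tmem38a had reached 35.1 CPM per kb, beside 36.8 for Sun2, whose own libraries ranged from 84.8 to 244 CPM. Syne1 transcripts range from 2726 to 27908 bases among coding forms, so a change of isoform would alter these values.

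Confluence alone was not accompanied by a called change. Between D0 and Prol none of the 9 genes passed in WT or KO cells, and 0.00566% and 0.0% of all tested genes were called. At an unadjusted p under 0.05 none of the 9 passed either (limma), and none was called by voom weights. The fitted log2 changes had a lowest value of -0.16 (Wfs1, Tor1aip1) and a highest of 0.09 (Syne3) in WT cells. For KO cells these were -0.46 (Syne2) and 0.26 (Syne3). Between D2 and D0, 3 of 9 genes passed in each genotype, again Syne1, Tmem38a and Wfs1 as higher, beside 26.0% of all tested genes in WT (14.7% as higher) and 28.3% in KO cells (15.4% as higher). These comparisons share the D2 libraries with those against Prol. Tmem38a rose 9.93-fold and 6.87-fold, Wfs1 2.93-fold and 2.37-fold, and Syne1 3.12-fold and 3.74-fold.

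None of the 9 genes passed the test between KO and WT cells in any state. The share of all tested genes called was 0.00566% in Prol, 0.0% in D0 and 0.0% in D2 cells, 0.00566% for the mean of the 3 states and 0.0% for the KO effect at D2 compared with that in Prol cells. With a pseudocount of 1 CPM, 31 of the 17667 tested genes were called at D2, 3 higher and 28 lower in KO cells. None of the 9 was among them. Without a block the lowest unadjusted p was that of Tmem38a at D2, the only one of the 9 under 0.05 in a single state (limma). With a block on replicate number, Tmem38a and Syne2 at D2 were under 0.05 unadjusted (0.00242 and 0.00647, limma). That held for 924 of all 17667 tested genes. Of the 9, 0 were called with voom weights or a replicate block. Tmem38a in KO D2 libraries was below all WT D2 libraries (35.3, 62.1 and 51.9 against 71.6, 81.6 and 70.3 CPM), as 3.82% of tested genes were. It was 1.53-fold lower (log2 -0.62, standard error 0.21, unadjusted p = 0.0095, adjusted p = 1, limma), and lower in 3 of 3 same-numbered pairs. Its fitted difference was smaller before, with -0.14 in Prol and -0.09 in D0 cells, and the KO effect at D2 minus that in Prol cells was -0.48 (standard error 0.30, unadjusted p = 0.126, adjusted p = 1, limma). The D2 value was -0.42 without the libraries numbered 1 (unadjusted p = 0.0888, adjusted p = 1, limma). The summed muscle markers at D2 moved the same way, with no overlap between 1520 to 1880 CPM in KO and 2520 to 5020 CPM in WT cells, and their part in the Tmem38a value was not tested. In bulk RNA, fewer differentiated cells and less RNA per cell cannot be told apart.

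**Figure D4:**
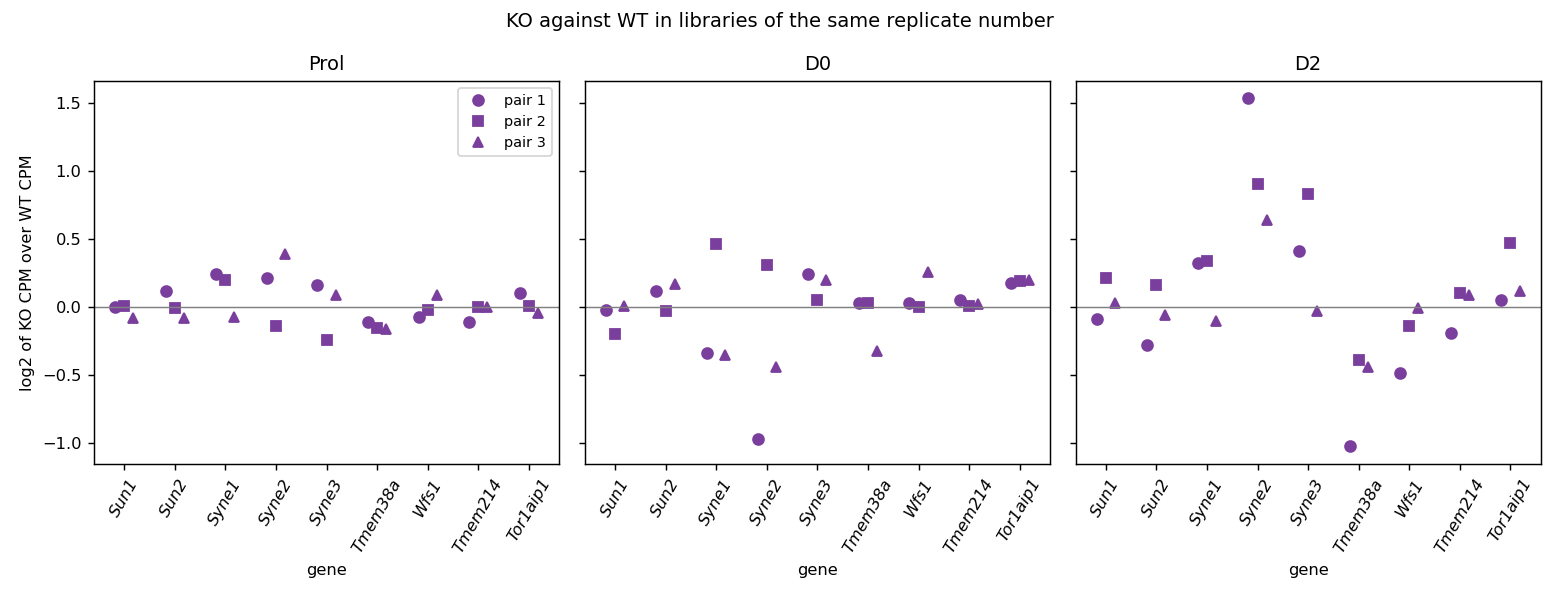
Log2 ratio of KO to WT CPM of the 9 genes in Prol, D0 and D2 cells, 1 point for each pair of libraries with the same replicate number. Most points lie near 0 in Prol cells and spread at D2, where the 3 Tmem38a points are at -1.02, -0.39 and -0.44 and the 3 Syne2 points at 1.53, 0.90 and 0.64.

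The other 8 genes had small or poorly determined differences. Syne2 at D2 had the largest fitted one, with KO libraries at 60.7, 12.6 and 17.8 and WT libraries at 21.1, 6.79 and 11.4 CPM. The groups overlapped while each same-numbered pair was higher in KO cells, and the log2 difference was 1.02 with a 95% interval of -0.54 to 2.59 (adjusted p = 1, limma). A block on replicate number lowered its standard error from 0.74 to 0.32 (unadjusted p = 0.00647, adjusted p = 0.687, limma). In D0 cells the Syne2 pairs went both ways, from -0.97 to 0.31. Tor1aip1 was higher in KO than in WT libraries in 8 of 9 same-numbered pairs over the 3 states, with a median log2 difference of 0.12 and an adjusted p of 1 (limma). At D2 the 95% intervals of the log2 difference were -0.51 to 0.61 for Sun1, -0.91 to 0.79 for Sun2, -0.87 to 1.25 for Syne1, -0.51 to 1.32 for Syne3, -0.89 to 0.47 for Wfs1, -0.48 to 0.48 for Tmem214 and -0.61 to 1.04 for Tor1aip1. These do not show that the genes are equal in both genotypes. None of the 4 ratios passed between KO and WT over the 18 libraries (exact two-sided permutation within state, 8000 arrangements, adjusted p of 0.41 to 0.78). At D2 alone the Syne1 to Syne2 ratio was lower in all KO (1.04 to 1.82) than in all WT libraries (2.01 to 2.68), a detail picked after the values were seen, and with 3 libraries against 3 an exact two-sided test cannot go below 0.1.

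Related genes of the envelope give the setting of the 9. Of 42 genes listed, 38 were tested, and 14 of them passed from Prol to D2 in each genotype, 9 as higher and 5 as lower, which is 36.8% beside 30.7% and 32.3% of all tested genes. Blocked on replicate number, 25 of the 38 passed in WT and 23 in KO cells, beside 47.7% and 48.6% of all tested genes. Among 6 other LINC genes, 3 were tested and only Ccdc155, a nesprin-like protein of meiosis, was called, at no more than 0.451 CPM in any library. Ccdc155 was not called without the libraries numbered 1 (adjusted p of 0.0770 in WT and 0.101 in KO cells, limma). It also lost the call without WT Prol library 3 (0.0859) or WT D2 library 2 (0.0530), and in KO cells without KO Prol library 1 (0.0848) or KO D2 library 2 (0.0612). Of 16 tested partners of the LINC complex, 1 was higher and 3 were lower. Akap6, an anchor that nesprin-1 holds at the muscle nucleus, rose from 1.66, 1.88 and 1.5 to 32.2, 12.8 and 17.8 CPM in WT libraries (log2 3.54, adjusted p = 1.97e-05, limma) and by log2 3.09 in KO cells. Pcnt, a scaffold of the centrosome, fell by 1.59 and 1.61 on the log2 scale. The inner membrane proteins Tmem201 (-0.77 and -0.89) and Emd, emerin (-0.68 and -0.80), fell as well. Of 6 torsin genes, Tor3a alone was called, with a log2 rise of 2.17 in WT and 2.09 in KO cells, while Tor1a, the torsin most studied with LAP1, had log2 values of -0.35 and -0.51 that did not pass. Blocked on replicate number, both values of Tor1a passed (adjusted p = 0.000969 in KO cells, limma). Of the 13 other genes in this list of related genes, 6 were higher and 2 lower in both genotypes. Plpp7 (NET39), Popdc2 and Klhl31 were under 1 CPM in every Prol and D0 library and at 5.39 to 5.88, 3.11 to 5.34 and 10.8 to 17.2 CPM in WT D2 libraries. KO D2 libraries held 2.25 to 3.53, 1.65 to 2.70 and 7.48 to 10.2 CPM, with adjusted p of 1 between genotypes for each. Nrm, nurim of the inner membrane, fell by 1.77 and 1.79. Of 4 lamina genes, Lmnb1 (-2.27 in WT and -2.45 in KO cells), Lbr (-1.29 and -1.21) and Lmnb2 (-0.71 and -1.04) fell, and Lmna had log2 values of -0.57 and -0.69 that did not pass. Both values of Lmna passed when blocked on replicate number (adjusted p = 0.0138 in KO cells, limma).

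**Figure D5:**
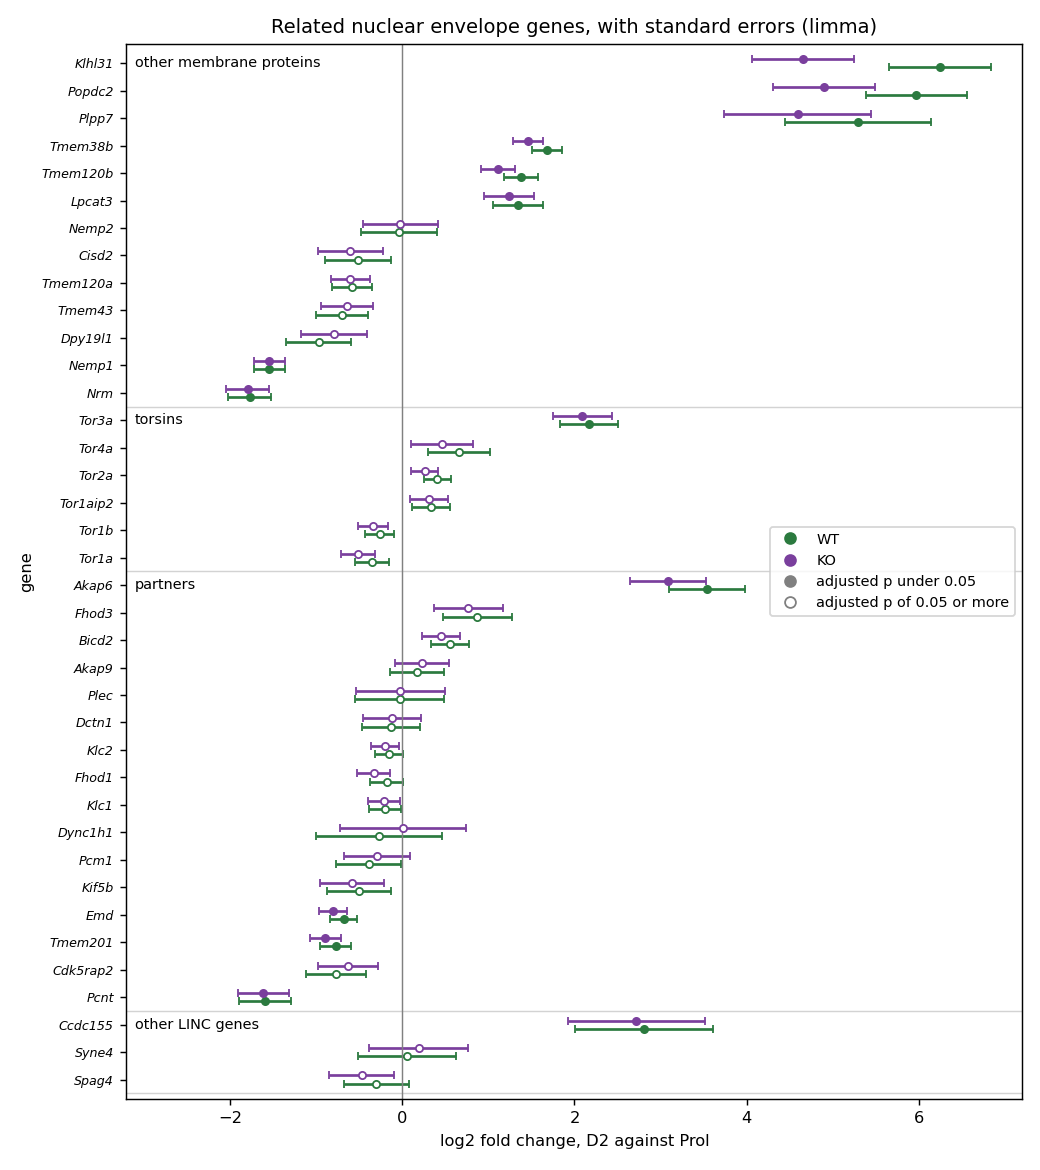
Log2 fold change from Prol to D2 of the 38 tested related envelope genes in WT (green) and KO (purple) cells, in 4 lists. Bars are standard errors from limma, and filled points passed an adjusted p of 0.05. Klhl31, Popdc2 and Plpp7 are at the far right, Akap6, Tor3a and Ccdc155 stand out in their lists, and Nrm, Pcnt and Nemp1 are lowest.

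For each of the 9 genes, the tested genes with the closest course were found as the smallest root mean square difference of centred log2 group means over the 6 groups, among 10241 genes with at least 10 CPM in 1 group mean. Likeness rests on 6 means that share libraries and is a description. Tmem38a was closest to Abca8b (0.0896), Cryab (0.103) and Cobl (0.108), all with higher mean levels at D2 than before in both genotypes. Syne1 was closest to Prnp (0.0562), Mvd (0.0631) and Hmgcs1 (0.0632), and Wfs1 to Susd6 (0.0434), Adgrl3 (0.0443) and Maml3 (0.0491). Syne2 had the least similar neighbours, Pawr (0.145), A930004J17Rik (0.190) and Lpp (0.196), while Syne3 had Ank2 (0.0481), Shc2 (0.0488) and Atf5 (0.0598). For the other 4 genes the neighbours were Erbin (0.0169), Fcho2 (0.0256) and Cul4b (0.0276) for Sun1, Stam2 (0.0120), Rptor (0.0131) and Gm20716 (0.0192) for Sun2, Plekha1 (0.00777) and Cspg4 (0.0236) for Tmem214, and Heatr5b (0.0270), Sec31a (0.0308) and Spg11 (0.0315) for Tor1aip1.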

How the data were processed

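RNA of 18 libraries was poly(A)-selected, made into strand-specific libraries and sequenced as 50-base single reads. According to the study's methods, reads were trimmed with cutadapt, aligned with NextGenMap and counted per gene with RSEM, then scaled with TMM factors, and sequencing lanes entered the study's own model. The labels do not give lanes, so they could not be modelled here. The deposited values are CPM per gene and library, written with decimal commas (entered as unit "other" for that reason). They equal the expected count plus 0.5 over the scaled library total, so the expected counts could be recovered, and 36% to 49.1% of those between 0.01 and 20 were within 0.01 of a whole number. No further normalization was applied by the authors in the deposited CPM, as far as the values show.

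A gene was kept if any group had over 5 expected counts in each of its 3 libraries (17667 of 19153). The log2 CPM were fitted with limma 3.58.1 (R 4.3.3, trended eBayes), with the 6 groups as 1 factor over 18 libraries. A gene was called at a Benjamini-Hochberg adjusted p under 0.05 over all tested genes, and adjusted p-values come from this fit unless another is named. Ratios were tested by exact permutation (Python 3.11.15). Fold changes of genes near 0 CPM depend on the added 0.5 counts. Gene positions and transcript lengths are from GENCODE M21 (GRCm38), and promoters from RefSeq. The scripts were tested on simulated data.

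The 9 genes, the lists of related genes and markers, the ratios and the tests were chosen with earlier results of these data known. Named genes were the 9, Tmpo, from each list of related genes up to 4 with the largest fitted change among those called in D2 against Prol, and the 3 nearest neighbours of each of the 9, of which 1 is not reported here. Tor1a and Lmna were named beside them after their values were seen, and Tmem38b for its ratio to Tmem38a. Same-numbered libraries deviated together (correlation over 0.1 for all 3 numbers) in 7 of 9 comparisons and in 25 of 27 pairs, with 0.01 to 0.645. The exceptions were number 3 in WT D2 against Prol (0.0389) and in WT D2 against D0 (0.01). Alternatives were other scalings (library totals, median of ratios), no filter, a pseudocount of 1 CPM, voom weights, only the groups compared, a replicate block, a call rule of unadjusted p under 0.05, 1.5-fold and 10 CPM in 1 library, which is looser than the log2 change over 1.5 that the study's methods state, and leaving out each library. Removing the length trend of each library, alone or with the block, the call rule with that log2 change, leaving out all libraries numbered 1 and voom with a random block and no filter were added after seeing the data.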

Additional observations from a re-analysis of the deposited data

Results flagged for a closer look

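In 3 cases all same-numbered pairs of libraries moved one way in one setting and the opposite way in another. None of these differences was tested. Syne2 was lower at D2 than at D0 in all 3 WT pairs (log2 -2.141, -0.544 and -1.047) and higher in all 3 KO pairs (0.355, 0.045 and 0.034), a difference of 1.39 between the means. The KO pairs 2 and 3 were close to 0, and neither genotype's change passed the test. Wfs1 was higher in KO than in WT cells in all 3 D0 pairs (0.033, 0.002 and 0.259) and lower in all 3 D2 pairs (-0.48, -0.135 and -0.008), a difference of -0.31. Tmem214 was lower in KO than in WT cells in all 3 Prol pairs (-0.108, -0.004 and -0.003) and higher in all 3 D0 pairs (0.052, 0.009 and 0.024), a difference of 0.07. Some of the Wfs1 and Tmem214 pairs were close to 0 as well. Groups of 3 libraries were too small to test for single outlying samples.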

How the results depend on the processing

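Over 147 results and 32 alternatives, the 12 called values of Syne1, Tmem38a and Wfs1 kept their direction in 228 of 228 recomputed values and their call in 217. Of the 11 lost calls, 3 were of Wfs1 under a required log2 change over 1.5 (WT and KO D2/Prol, KO D2/D0). The others were of Syne1 and, besides the 3 named in the report, were WT D2/D0 without WT D0 library 2 (log2 1.32), without WT D0 library 3 (1.47), without WT D2 library 1 (1.2) and with only the groups compared (1.64), and KO D2/D0 without KO D0 library 3 (1.60). Leaving out 1 library left 2 to 3 of the 9 genes called in each D2 comparison and 0 in the others, and 13 to 18 (WT) and 13 to 15 (KO) of the 38 related genes. Log2 ratio changes D2/Prol then ran from 2.37 to 2.57 (Syne1 to Syne2), 0.96 to 1.24 (Syne3 to Syne2), 1.41 to 1.63 (Tmem38a to Tmem38b) and -0.03 to 0.11 (Sun2 to Sun1), and those of KO/WT from -0.32 to -0.05, -0.26 to 0.08, -0.29 to -0.14 and -0.02 to 0.09. Without all libraries numbered 1 the 3 called ratios were 2.47, 1.04 and 1.71 and could not pass.

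The labels tie libraries of different groups by replicate number only. In WT D2/Prol the libraries numbered 1 and 2 deviated together (correlations of 0.405 and 0.27), while those numbered 3 hardly did (0.0389). In WT D2/D0 the correlations were 0.454, 0.471 and 0.01 for numbers 1, 2 and 3. The replicate block gave 5 called genes of the 9 in WT D2/D0, as did the block with length correction (5) and voom with a random block (5). Syne2 (adjusted p = 0.00587, limma) and Tmem214 (adjusted p = 0.0212) were added there, and Syne2 in WT D2/Prol (adjusted p = 0.00714). In the same 3 settings 25, 28 and 22 related genes were called in WT D2/Prol and 23, 24 and 22 in KO D2/Prol. Of all tested genes these settings called 47.7%, 49.3% and 42.3% in WT and 48.6%, 50.3% and 43.9% in KO D2/Prol. Over all genes the block raised the calls from 5426 to 8431 in WT D2/Prol, from 5707 to 8581 in KO D2/Prol, from 4591 to 7642 in WT D2/D0 and from 4997 to 8125 in KO D2/D0. Lmna and Tor1a were called with the block in WT D2/Prol too (adjusted p of 0.0381 and 0.0134, limma). Apart from the calls named here and in the report, it changed no call of the 9 genes. Tmem214 passed in WT D2/D0 under library totals as well. The rule of unadjusted p, 1.5-fold and 10 CPM gave 1 of the 9 in KO/WT D2, Tmem38a. With the log2 change over 1.5 that the study's methods state it gave 0, and 7 (WT) and 6 (KO) related genes in D2/Prol. Library totals moved the median of all genes by 0.131 to 0.162 (log2) in D2/Prol and the split of calls from 2942 higher and 2484 lower to 3470 and 1952 in WT, and from 3027 and 2680 to 3427 and 2241 in KO cells. Of 2034 recomputed values of the 9 genes, 230 of uncalled results changed sign, 163 of them on leaving out 1 library and 38 under a length correction, with a size of at most 0.4 in the fit as reported. The causes were not tested.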
